A study of Mus musculus with 3 samples.

Results

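Acyl-CoA thioesterases (Acot genes) were followed as a family across chromatin immunoprecipitation sequencing (ChIP-seq) of mouse liver. The 10 members were chosen by name as Acot1, Acot2, Acot3, Acot4, Acot5, Acot6, Acot7, Acot8, Acot12 and Acot13, and all of them were found among the 22367 protein-coding genes of the GENCODE M1 annotation of the NCBI37/mm9 genome. Acot1 to Acot6 lie side by side on chromosome 12, in the order Acot2, Acot1, Acot4, Acot3, Acot5 and Acot6, and form the cluster described here (6 genes). Acot7, Acot8, Acot12 and Acot13 lie elsewhere (4 genes). Acot9, Acot10 and Acot11 were not among the members and are described with other thioesterases below. The data came from livers of male C57BL/6 mice, wild type and 3 months old by the sample labels, with no genetic change and no treatment named for these samples. Of the 3 libraries, 1 was made with an antibody against retinoid x receptor α (RXRα), 1 with an antibody against retinoic acid receptor α (RARα), and 1 from input chromatin without precipitation. With 1 library for each antibody there was no replicate, so no test between libraries was possible, and the intervals given below are 95% exact intervals that cover counting error only.

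Acyl-CoA thioesterases split fatty acyl-CoA esters into free fatty acids and coenzyme A, and so work against the acyl-CoA synthetases that activate fatty acids. Type I enzymes (Acot1 to Acot6 in the mouse) are close relatives of each other that act in the cytosol (Acot1), in mitochondria (Acot2) or in peroxisomes (Acot3 to Acot6). Type II enzymes share another protein fold and include the cytosolic Acot7 and Acot12, the peroxisomal Acot8 and the mitochondria-associated Acot13. Several type I genes are textbook targets of peroxisome proliferator-activated receptor α (PPARα), a fatty acid receptor that binds DNA together with RXR. RXR is also the DNA-binding partner of RAR, the receptor of retinoic acid, and RXR with PPAR is known for binding a direct repeat of the hexamer AGGTCA with a spacing of 1 base (DR1).

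For RXRα and input, the deposited signal was the number of extended reads that covered each bin of 32 bp. It corresponded to 9999939 reads for RXRα and 9999292 reads for input. These totals are nearly equal, and the study reports more uniquely mapped reads for RXRα than the deposited total. The deposited RXRα signal is therefore not the full depth of the library, and how this depth was reached is not stated. The intervals below treat the deposited reads as counts. An RXRα region was a run of bins with RXRα no less than 20-fold over their own input, where an input under the genome mean of 0.603 reads per bin was raised to that mean. The ratio of a region is that of its highest-ratio bin. For RARα, the deposited list gave peaks with a score but no reads, so reads at RARα peaks could not be counted. The study reports more uniquely mapped reads for RARα than for RXRα. RARα peaks with a score greater than 20 were counted unless stated otherwise. Co-localization meant that a RARα peak and an RXRα region overlapped by at least 25% of the narrower of them. Distances are from the gene start in the direction of transcription, and a gene was counted when a RARα summit or the middle of an RXRα region lay within 10 kb of its start. The label of the tissue was checked on marker genes. A co-localized RARα peak was found at 9 of 10 hepatocyte genes and at none of 4 stellate cell, 4 endothelial, 4 immune, 4 biliary and 4 other-tissue marker genes, against 23.5% of all genes. A RARα peak by itself separated them less. It was found at 9 of 10 hepatocyte and 3 of 4 endothelial genes, and at 1 of 4 genes in each other list, against 52.2% of all genes.

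Of the 10 thioesterase genes, 7 had a RARα peak, namely Acot3, Acot4, Acot5, Acot7, Acot8, Acot12 and Acot13, against 52.2% of all protein-coding genes. An RXRα region was present at 9 of the 10 genes, with the exception of Acot5, against 39.8% of all genes. A co-localized RARα peak was present at 4 of the 10 genes, against 23.5% of all genes. These 4 genes were Acot7, Acot8, Acot12 and Acot13, so that all 4 members outside the cluster and 0 of 6 members inside it had co-localized binding. This division depends on the cut offs. Without a RARα score threshold Acot1 and Acot3 were added, whereas 2 of the 4 genes remained with a score greater than 50 (Acot8 and Acot13) or at 30 times input (Acot8 and Acot12). Within the cluster, Acot1, Acot2 and Acot6 had RXRα regions without a RARα peak, a state found in 7.19% of all genes. Acot3 and Acot4 had both kinds of binding at different places (9.13% of all genes), and Acot5 had a RARα peak alone (19.6% of all genes). None of the 10 members lacked both, whereas 40.6% of all genes did. Acot9 and Acot10, which were not among the members, lacked both.

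The cluster with 10 kb to each side covered chr12:85318811-85462299, which is 143.5 kb. It held 12 RXRα regions, or 8.36 per 100 kb, while the genome as a whole held 1.59 per 100 kb. The lowest of their ratios was 24 and the highest 173, with a median of 56.5 compared to 34.8 for all 42117 RXRα regions. Over the whole interval, 2286 RXRα reads stood against 799 input reads, which gave a ratio of 2.86 (interval 2.64 to 3.10). Input itself was higher here than on average, at 5.57 reads per kb against 3.77 in the genome. When the bins of the 12 regions were left out, a choice made after seeing the data, the ratio of the rest of the interval was 1.75. In the same interval, 3 RARα peaks passed the score of 20, with scores of 29, 26 and 21, which is 2.09 per 100 kb against 1.24 in the genome. Both genome rates include gene-poor stretches, so they are low for an interval full of genes. Within 10 kb of a gene start, the cluster genes had a median of 1.0 RXRα regions and 0.5 RARα peaks. Over all genes the medians were 0 and 1.0 and the means 0.856 and 1.1, so RARα peaks were not frequent here by this measure. The interval held 14 RARα peaks of any score, and 3 of the 12 RXRα regions were overlapped by such a peak, with highest scores of 9, 7 and 12.

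**Figure D1:**
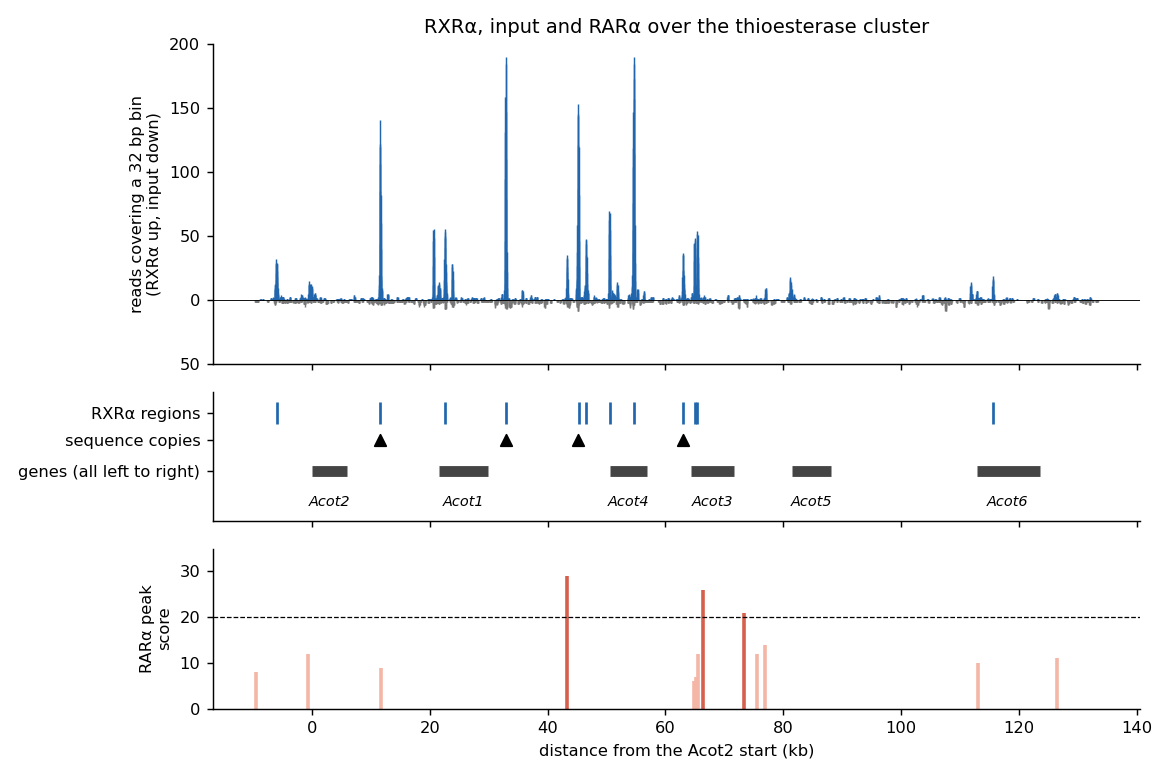
RXRα and input reads per 32 bp bin (top, input drawn downward), RXRα regions, copies of a shared sequence and gene bodies (middle), and RARα peak scores (bottom, score of 20 dashed, darker bars above it), by distance in kb from the Acot2 start. The 12 RXRα regions stand mostly between Acot2 and Acot3, the RXRα signal is low from Acot5 onward, and the highest RARα score is 29.

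RXRα was concentrated between Acot2 and Acot3. In this stretch the highest bins reached 190 reads in an intron of Acot4 and again 190 reads 11.2 kb after the Acot1 start, 153 reads before Acot4 and 141 reads between Acot2 and Acot1. The Acot5 and Acot6 windows, by contrast, had no bin above 18 and 19 reads, respectively. Several of these RXRα regions shared their sequence. The windows of 201 bp around the regions on either side of Acot1, 10080 bp before and 11216 bp after its start, aligned over 183 bp with 177 identical bases (96.7%). After this was seen, the 61 bases around the best DR1 match of the region before Acot1 were searched for on both strands of the cluster, without gaps. Besides the starting sequence itself (copy 1), 3 further copies stood out, all on the plus strand, with 58, 41 and 37 identical bases of 61. The next match in the cluster had 31.

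The 4 copies are printed because an RXRα region lay at each of them. Each is given 5′ to 3′ on the plus strand of NCBI37/mm9, and capitals mark the 13 bases at the place of the DR1 match. None of them lies in a protein-coding gene.
Copy 1, chr12:85340361-85340421, 11580 bp after the Acot2 start: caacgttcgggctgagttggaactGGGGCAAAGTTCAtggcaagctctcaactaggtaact
Copy 2, chr12:85361655-85361715, 11237 bp after the Acot1 start: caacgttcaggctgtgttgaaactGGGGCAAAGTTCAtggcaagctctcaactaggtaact
Copy 3, chr12:85373998-85374058, 5301 bp before the Acot4 start: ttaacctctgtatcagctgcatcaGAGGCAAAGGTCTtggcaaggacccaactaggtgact
Copy 4, chr12:85391696-85391756, 1368 bp before the Acot3 start: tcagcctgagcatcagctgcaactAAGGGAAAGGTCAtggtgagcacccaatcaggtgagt

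The capitals in copies 1, 2 and 4 differ from the DR1 repeat at 3 of its 12 fixed positions and those in copy 3 at 4. None of the copies thus holds a close match to the strict repeat of AGGTCA. Looser forms of DR1 were not searched, so a DR1-type site in the copies was not tested. In all of them the best DR1 match of the region fell at the same aligned place. All 4 copies lay in or at the edge of an RXRα region. The region at copy 4 was a single bin with 24 RXRα reads and 1 input read, not far above the 20-fold cut off. Within 201 bp around the centre, copy 1 had 131 RXRα reads (interval 110 to 156) and 1.8 input reads. Copy 2 had 203 RXRα reads (176 to 233) and 7.0 input reads, and copy 3 had 153 (130 to 179) and 7.2. Copy 4 was lower, with 32 RXRα reads (21.9 to 45.2) and 2.8 input reads, and its interval does not overlap those of the other copies. The RXRα reads thus stood in the order of copies 2, 3, 1 and 4, in which the intervals of copies 2 and 3 overlap narrowly and those of copies 3 and 1 overlap as well. Copy 1 was the starting point of the search and was taken from an RXRα region, so its signal is no result of the search.

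**Figure D2:**
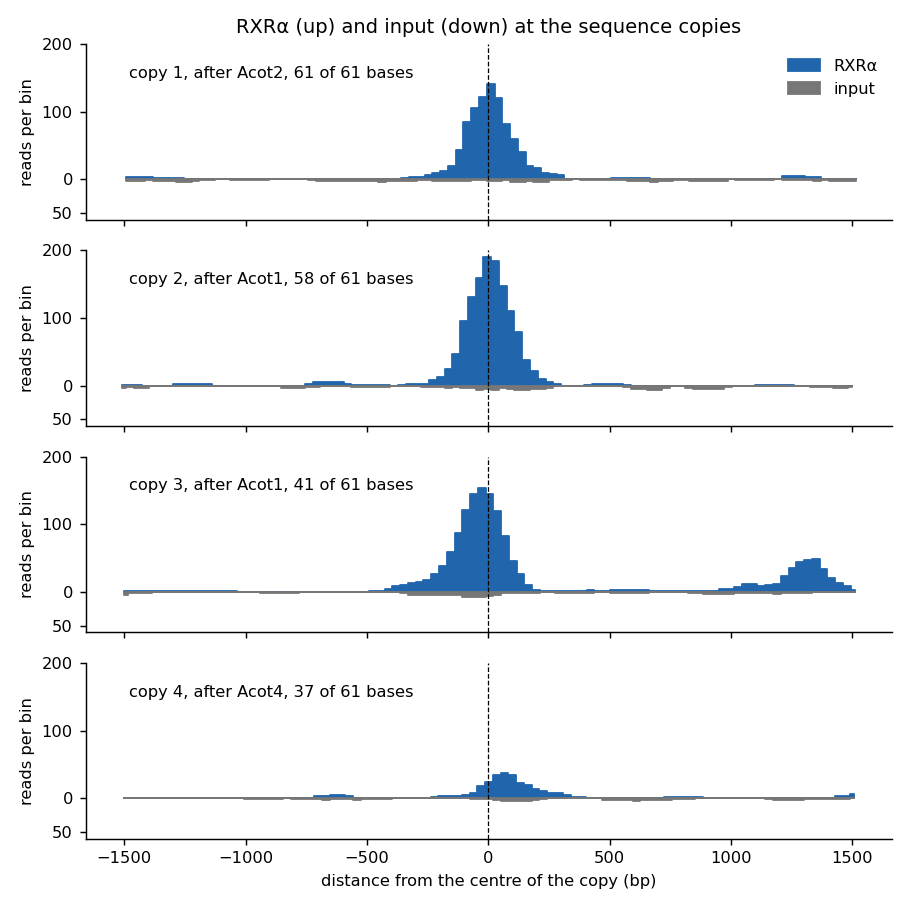
RXRα reads (upward) and input reads (downward) per 32 bp bin within 1500 bp of the centre of each sequence copy (dashed line). The RXRα signal has its highest bin at or close to the centre of copies 1 to 3, with 141, 190 and 153 reads, and reaches 37 reads beside copy 4.

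RARα was weak or absent at the copies. A RARα peak with a score of 9 had its summit 64 bp from the centre of copy 1. The nearest RARα peak of any score to copy 2 was 10400 bp away, to copy 3 it was 1943 bp away with a score of 29, and to copy 4 it was 1924 bp away with a score of 6. Copies 1 and 2 are so alike that only 49.8% of the 32-base stretches around each occur once in the genome, so reads could not always be assigned to either of them. The study reports uniquely mapped reads, so reads from shared stretches may be missing at both copies. How they were treated in the deposited signal is not fully stated. The reads of copies 1 and 2, their division and their place in the order of copies are therefore uncertain. Around copies 3 and 4 the share was 100%. The match with 31 identical bases had 0.4 RXRα and 0.0 input reads, but only 2.99% of its stretches were unique, so its binding could not be measured.

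Acot2, which encodes the mitochondrial type I enzyme, lies at chr12:85328811-85334823 on the plus strand (ENSMUSG00000021226.7). Its 10 kb window held 179 RXRα reads (interval 153.7 to 207.2) and 77.0 input reads. The only RXRα region in the window lay 6011 bp before the start with a ratio of 53.1, and it was nearer to the start of Gm17673. It held a DR1 with 2 mismatches. Close to the start itself, the highest ratio was 19.9, 538 bp upstream, with 12 RXRα reads and 0 input reads in the bin, just under the 20-fold cut off. A RARα peak with a score of 12 lay 686 bp upstream of the start and did not reach the score of 20. Within 1 kb of the Acot2 start there were 51.4 RXRα reads and 7.4 input reads, fewer of both than at Acot1, Acot3 and Acot4, and the ratio of 6.95 (3.29 to 19.0) was like theirs within its interval.

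Acot1, the cytosolic enzyme, lies at chr12:85350448-85358621 on the plus strand (ENSMUSG00000072949.4). An RXRα region in an intron, 960 bp after the start, had a ratio of 81.3 with 49 RXRα reads and 0 input reads in the bin. Another bin 991 bp before the start reached 56 RXRα reads with 6 input reads, which is below 20-fold. Copies 1 and 2 flank Acot1 at just over 10 kb on either side and were therefore not counted for it, although the highest ratio within its window, 82.0 at 9983 bp upstream, is the edge of the region with copy 1. The best RARα score in the Acot1 window was 9. Of the members, Acot1 thus had the lowest RARα score, while its highest RXRα ratio was above that of 93.3% of all genes.

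Acot4, which encodes a peroxisomal enzyme of dicarboxylic acyl-CoA esters, lies at chr12:85379329-85385673 on the plus strand (ENSMUSG00000052392.4). It had 849 RXRα reads (792.8 to 908.1) against 151 input reads in its window, the most RXRα reads of the 10 members. The window held 4 RXRα regions. They lay 5233 bp and 3937 bp upstream with ratios of 41.0 and 79.6, at the untranslated start of the gene with a ratio of 58.1, and in an intron 4159 bp downstream with a ratio of 173, where the bin held 173 RXRα reads and 1 input read. Its RARα peak with a score of 29, the highest in the cluster, had its summit 7244 bp upstream. RXRα was enriched at that peak as well, with 35 reads in the highest bin, but input was 4 in the same bin and no RXRα region was called. At a cut off of 10 times input, Acot4 became a gene with co-localized binding.

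Acot3, another peroxisomal enzyme, lies at chr12:85393094-85400515 on the plus strand (ENSMUSG00000021228.7). Its window held 576 RXRα reads (529.5 to 624.6) and 112 input reads and overlaps that of Acot4, because the starts are 13765 bp apart. The intronic region of Acot4 with a ratio of 173 was counted for both. Of the regions nearest to Acot3, those in the untranslated part 682 bp and 1114 bp after the start had ratios of 54.8 and 86.3, and that at copy 4 had 24. Weak RARα peaks with scores of 6, 6, 7 and 12 ran along the same stretch after the start. Its RARα peak with a score of 26 lay in an intron 2101 bp after the start, where RXRα had only 3.6 reads over the peak against 2.0 input reads.

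Acot5 and Acot6, both peroxisomal, differed from the other genes of the cluster. Acot5 lies at chr12:85410275-85416970 (ENSMUSG00000042540.6) and had 110 RXRα reads (90.41 to 132.6) against 82.6 input reads in its window. Its highest ratio was 18.0 at 306 bp upstream of the start, with 18 RXRα reads and 1 input read, so the absence of an RXRα region rests on the cut off. The RARα peak that was counted for Acot5, with a score of 21, lay 8185 bp upstream and had 1.0 RXRα and 1.0 input reads. Acot6 lies at chr12:85441604-85452299 (ENSMUSG00000043487.3) and had 94.0 RXRα reads (75.96 to 115) against 92.8 input reads. A single intronic bin, 2828 bp after the start, made its RXRα region with a ratio of 28.2, from 17 RXRα reads and 0 input reads. The best RARα score at Acot6 was 10. No copy of the shared sequence was found near either gene.

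Outside the cluster, both receptors met at the gene starts. Acot12, the cytosolic acetyl-CoA hydrolase of liver, lies at chr13:91881117-91925753 on the plus strand (ENSMUSG00000021620.4) and had 767 RXRα reads (713.7 to 823.3) and 172 input reads in its window. Its RXRα region 93 bp before the start had a ratio of 179, with 108 RXRα reads and 0 input reads in the bin. This was the highest ratio of the family, but it rests on the input being raised to the mean, whereas the 173 in the Acot4 intron came from 173 RXRα reads over 1 measured input read. A RARα peak with a score of 35 overlapped it. Further RXRα regions of Acot12 lay in introns, among them that 8771 bp downstream with a ratio of 144, where the RARα score of 19 was just below the threshold, and that 24323 bp downstream with a ratio of 53.1, which co-localized with a RARα peak of score 21. In all, 7 RXRα regions lay inside the Acot12 gene, more than in any other member. The count was not scaled to gene length, which is 44637 bp for Acot12. Acot4 held 2 regions in 6345 bp and Acot7 held 4 in 93722 bp.

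Acot8, which encodes a peroxisomal enzyme of broad substrate range, lies at chr2:164618268-164630382 on the minus strand (ENSMUSG00000017307.9). Zswim3 starts 216 bp away in the other direction. The highest RARα score of the family, 123, had its summit 253 bp upstream of Acot8, and a second peak with a score of 65 lay 97 bp inside, in a coding exon. The RXRα region at the stronger peak, 370 bp upstream of Acot8, lies inside Zswim3 and is nearer to its start. Its ratio was 39.0, with 39 RXRα reads and 1 input read, and the highest RXRα bin under the RARα peak had 58 reads. With peaks assigned to the nearest gene only, Acot8 lost its co-localized binding. A further RXRα region in an intron of Acot8, 1086 bp after the start, had a ratio of 68.0 and no RARα peak. These sequences are shown because they held the closest DR1 matches of the family, each with 1 mismatch. Capitals mark the DR1, and both are read 5′ to 3′ on the minus strand of NCBI37/mm9.
Acot12, chr13:91880992-91881052: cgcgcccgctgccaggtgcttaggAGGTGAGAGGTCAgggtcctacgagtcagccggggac
Acot8 and Zswim3, chr2:164630700-164630760: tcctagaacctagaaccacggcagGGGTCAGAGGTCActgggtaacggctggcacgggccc

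Acot13, the mitochondria-associated enzyme, lies at chr13:24909817-24923386 on the minus strand (ENSMUSG00000006717.6), 162 bp from the start of Tdp2. RARα peaks with scores of 75 and 40 stood side by side at the start, with summits 189 bp upstream and 41 bp downstream, and the stronger is nearer to Tdp2. Both overlapped an RXRα region with a ratio of 24 at the start. The higher RXRα ratio of Acot13, 58.0, was in an intron 5738 bp downstream, where no RARα peak was listed. Acot7, a cytosolic enzyme best known from brain, lies at chr4:151552243-151645964 on the plus strand (ENSMUSG00000028937.8). Its RARα peak with a score of 49 at the start overlapped an RXRα region with a ratio of 24.9 that held 15 RXRα reads and 0 input reads. A RARα peak with a score of 37, 4878 bp upstream, had 20 RXRα reads and 3 input reads in its highest bin and no RXRα region. The higher RXRα ratios of Acot7 were far inside the gene, with 74.7 at 34.2 kb without RARα and 33.0 at 54.4 kb with a RARα peak of score 27.

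**Figure D3:**
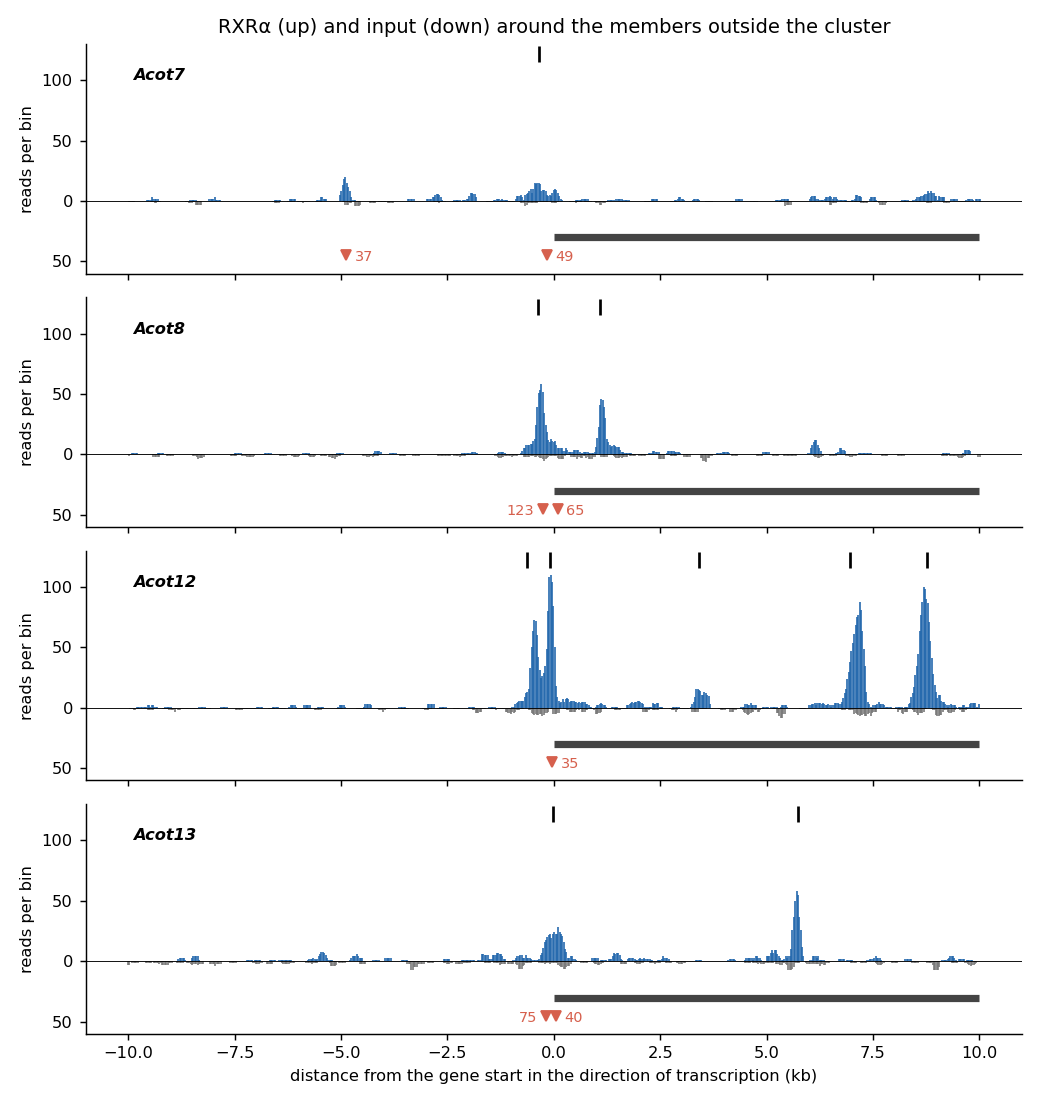
RXRα reads (upward) and input reads (downward) per 32 bp bin within 10 kb of the starts of Acot7, Acot8, Acot12 and Acot13, with the gene body as a dark bar, RXRα regions as black ticks at the top and RARα peaks with a score greater than 20 as triangles with their scores. RARα peaks stand at each of the 4 starts, while Acot8, Acot12 and Acot13 also have RXRα regions inside the gene within 10 kb of the start. Those inside Acot7 lie farther from its start and are not shown.

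Across the family the strengths of the receptors did not run in parallel. By the highest RARα score within 10 kb, the order was Acot8 (123), Acot13 (75), Acot7 (49), Acot12 (35), Acot4 (29), Acot3 (26), Acot5 (21), Acot2 (12), Acot6 (10) and Acot1 (9), against a median of 23 over all genes. The 4 genes outside the cluster all stood above the 6 genes inside it. By the highest RXRα ratio within 10 kb, Acot12 (179) was followed by Acot3 and Acot4 (173 for both, from the same region), Acot1 (82.0), Acot8 (68.0), Acot13 (58.0), Acot2 (53.1), Acot6 (28.2), Acot7 (24.9) and Acot5 (18.0), against a median of 14.9. Members of the cluster and the other members were mixed in this order, with medians of 67.5 and 63.0. The score and the ratio are different scales and cannot be compared with each other.

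**Figure D4:**
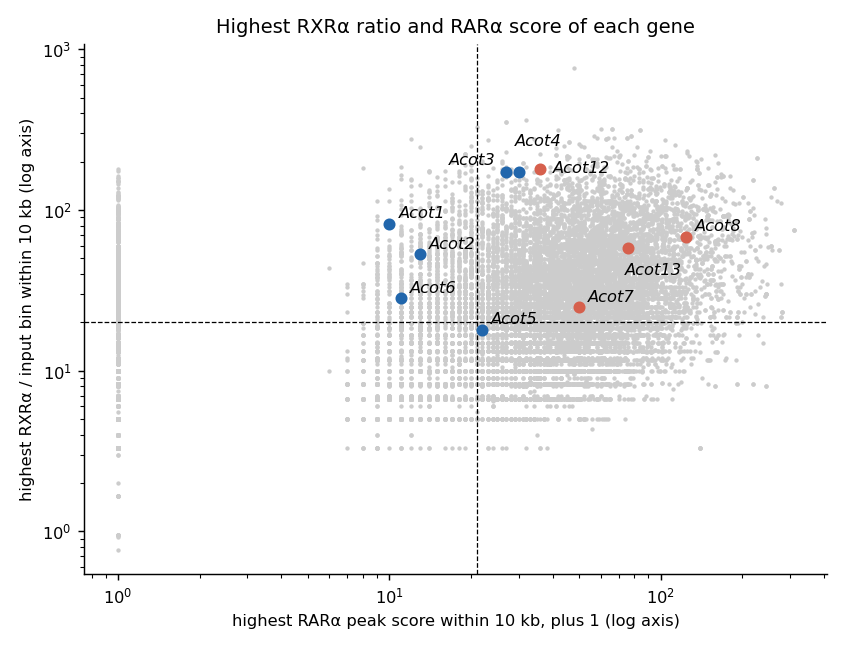
Highest RXRα to input ratio of a bin against the highest RARα score plus 1, both within 10 kb of the gene start and on log axes, for all protein-coding genes (grey), genes of the cluster (blue) and the other members (red), with dashed lines at the thresholds. The blue points have RARα scores of 9 to 29 and the red points 35 to 123, while their RXRα ratios overlap.

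Summed over the window of 10 kb to each side of the start, the ratio of RXRα to input reads was 5.62 (interval 4.72 to 6.73) for Acot4, 5.16 (4.19 to 6.35) for Acot3 and 4.46 (3.77 to 5.29) for Acot12, with intervals that overlapped. Next came Acot1 at 2.45 (1.99 to 3.01), Acot8 at 2.40, Acot2 at 2.32, Acot7 at 2.28 and Acot13 at 2.16 (1.74 to 2.67), which were not separated by their intervals. Acot1 and Acot12 were separated. Acot5 at 1.33 (0.988 to 1.78) overlapped Acot13 narrowly, and Acot6 at 1.01 (0.751 to 1.36) overlapped Acot5. The median over all genes was 1.09, and the windows of Acot5 and Acot6 were above those of 60.7% and 45.3% of all genes, while Acot4 was above 99.1%. Within 1 kb of the start the family had a median of 5.79 against 1.79 over all genes. On this scale Acot5 stood at 5.75 (2.69 to 14.1) from 46.0 RXRα reads and 8.0 input reads. This was close to the ratio of Acot1 at 5.82 (3.70 to 9.44), which came from 132.8 RXRα reads and 22.8 input reads. The ratio at the Acot5 start was thus not low, but with a wide interval, and its RXRα reads there were fewer than at Acot1. Acot6 stood lowest, at 2.52 (1.29 to 5.52). Over the gene bodies, Acot4 had 7.63 (5.75 to 10.5) and Acot2 had 1.27 (0.704 to 2.28).

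**Figure D5:**
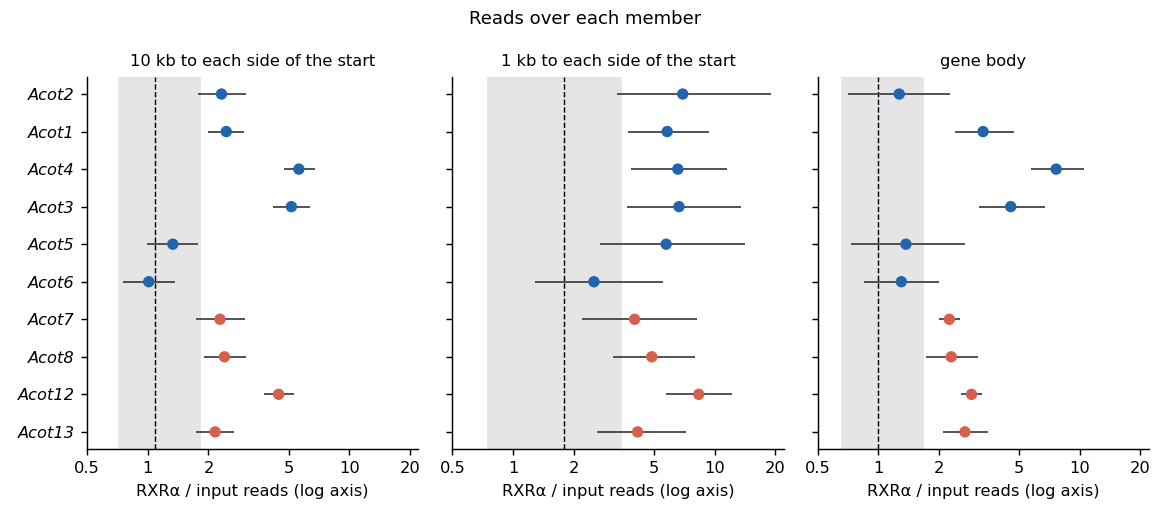
Ratio of RXRα to input reads (log axes) for each member within 10 kb of the start, within 1 kb of the start and over the gene body, with 95% exact intervals for counting error, genes of the cluster in blue and the others in red. The grey band is the range from the lower to the upper quartile of all genes and the dashed line their median. Acot3, Acot4 and Acot12 lie highest in the 10 kb panel and Acot5 and Acot6 are inside the grey band.

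Motifs were searched as copies of AGGTCA on both strands within 201 bp around the highest-ratio bin of each RXRα region. A DR1 with at most 2 mismatches was found in 5 of the 31 RXRα regions in the cluster and in the other member genes and windows, which is 16.1%. The share was 12% over all RXRα regions, 3.20% in windows 500 bp away and 3.26% in promoters of 300 bp. Besides the Acot12 and Acot8 regions shown above, these were the regions 6011 bp before Acot2, at the Acot4 start and in the Acot6 intron. The match at Acot6 lay within the 201 bp searched but not inside the region itself, which was a single bin. With at most 1 mismatch there were 2 regions (6.45%, against 2.77% over all regions), and a perfect DR1 was in 0 of 31, as in all but 0.290% of all regions. The region with a ratio of 173 in the Acot4 intron had its best DR1 at 3 mismatches. A repeat with a spacing of 5 bases, which RXR binds with RAR, was found with at most 2 mismatches in 4 of 31 regions (12.9%). The share was 5.28% over all regions, 2.09% in windows 500 bp away and 2.48% in promoters. With at most 1 mismatch this repeat was in 0 of 31. With at most 2 mismatches, spacings of 2, 3 and 4 bases were found in 1, 2 and 1 of the 31 regions (3.23%, 6.45% and 3.23%), against 6.20%, 5.01% and 6.37% over all regions. The repeats with a spacing of 5 lay in the windows around the regions of copies 3 and 4, before Acot4 and Acot3. The others lay in the windows around the Acot12 intron regions 3411 bp and 8771 bp after the start. None of these 4 regions had a RARα peak with a score greater than 20. Copies 3 and 4 are alike in sequence, so the repeats in their regions may not be independent of each other.

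The members of the cluster are near copies of each other, and this limits how reads can be assigned among them. Coding sequences were 71.4% (Acot2 and Acot4) to 87.0% (Acot1 and Acot2) identical. Of all 32-base stretches, 73.1% occurred once in the genome in the Acot2 gene body and 78.0% in Acot1, compared to 83.8 to 90.2% in the other cluster genes and 91.0 to 93.5% in the members outside the cluster. In the windows of 10 kb to each side of the start, the lowest shares were 74.5% for Acot6, 76.8% for Acot12 and 79.4% for Acot4, compared to 83.9% for Acot1 and 86.5% for Acot2. Within 1 kb of the start, they were 73.8% for Acot6, 76.8% for Acot4 and 77.6% for Acot5, followed by 79.8% for Acot1. The values of these genes are therefore less certain. For Acot2 this holds mainly within the gene body, and for Acot1 within the gene body and near the start. For the cluster as a whole, the ratio of RXRα to input was 2.84 with unique stretches only, close to the 2.86 of all bins.

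Genes around the family in fatty acid metabolism gave the following counts. They are to be read beside the shares of all protein-coding genes, which were 52.2% with a RARα peak, 39.8% with an RXRα region and 23.5% with co-localized binding. Of 8 other thioesterases and related hydrolases, 5 had a RARα peak, 4 an RXRα region and 1 co-localized binding, so this group stood near those shares. The 1 gene with co-localized binding was Them4 with a ratio of 68.0 and a RARα score of 101. Baat (ratio 22.3) and, with equal ratios of 21.6, Acot11 and Ppt2 followed it in RXRα, and Acot9, Acot10 and Them5 had neither a RARα peak nor an RXRα region. Of 10 acyl-CoA synthetases, 9 had a RARα peak, 9 an RXRα region and 7 co-localized binding, with Acsl1 (134), Slc27a2 (101) and Acsl5 (71.0) highest in RXRα ratio. Of 15 genes of peroxisomal oxidation, the counts were 13, 15 and 11, with ratios of 159 at Hsd17b4 and 148 at Ehhadh. All 12 genes of mitochondrial oxidation had all 3, led by Cpt1a (131), Acadm (130) and Hadh (113). The genes whose pattern was most like that of Acot12 in highest RARα score, highest RXRα ratio and window ratio were 4930485B16Rik, Pptc7 and Gcnt2, with summed differences in percentile rank of 0.121, 0.865 and 1.54 over the 3 measures.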

How the data were processed

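RXRα, input and RARα libraries from mouse liver were compared without replicates. The signal that the authors deposited for RXRα and input is whole-number read coverage in bins of 32 bp. For RARα, the authors deposited peaks with a score and a false discovery rate in percent, and the rate was not used as a filter. The submitters' processing notes name CASAVA 1.4, Bowtie, MACS and mm9. The study's methods name mm10 for the alignment, but the header of the signal files gives mm9, and 0 RARα peaks ran beyond an NCBI37 chromosome end, so NCBI37/mm9 was used throughout.

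Reads are the summed signal divided by 5, the number of bins that 1 read covers. The tracks were brought to a common mean, and bins at or above 20-fold within 200 bp of each other were joined. The score of 20, the 20-fold cut off, the window of 10 kb and the overlap of 25% come from the study's methods. Taking the overlap relative to the narrower interval, the floor at the mean input and the joining were chosen here. Intervals of reads are exact Poisson and those of ratios exact Clopper-Pearson intervals. Both rest on the deposited reads, whose RXRα total is below the number of mapped reads that the study reports. Region finding and overlap were tested on simulated data.

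The members, the gene lists and the settings were chosen with earlier results of these data known. Named genes were all members, genes nearer to a binding site than a member, the 3 genes most like Acot12, and of each pathway list the 3 with the highest RXRα ratio and those without binding, except 1 gene that is not reported here. RXRα regions were counted at 1 stellate gene (Hand2), 3 endothelial, 0 immune, 1 biliary and 2 other-tissue markers and at 10 of 10 hepatocyte genes. Python 3.11.15, numpy 2.4.6, pandas 2.3.3, scipy 1.17.1, pysam 0.24.0, Biopython 1.88, numba 0.67.0 and matplotlib 3.10.9 were used.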

Additional observations from a re-analysis of the deposited data

How the results depend on the processing

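Of 40 alternative values, 27 stayed within 1.5 times the count or within the counting interval. Without a RARα score threshold, the cluster had 14 RARα peaks, and with a score greater than 50 it had 0, while 2 genes of the family (Acot8 and Acot13) kept a RARα peak, and the same 2 kept co-localized binding. Within 1 kb of the start, 4 genes had a RARα peak, and the median ratio of RXRα to input reads was 5.79. With 30 times input, 2 genes (Acot8 and Acot12) had co-localized binding. With 10 times input, and likewise with the mean input only, the cluster had 20 RXRα regions. The ratio of RXRα to input in the cluster was 2.33 in bins with input reads only and 1.75 with the bins of RXRα regions left out, the last added after seeing the data. DR1 repeats were found in 2 regions with at most 1 mismatch and in 0 with no mismatch. Fewer bins, peaks or repeats pass a stricter setting by construction. No paired analysis was possible because each antibody had 1 library and no result came from a test between replicates. In 21 of 31 regions the highest-ratio bin had 0 input reads, so the ratio rests on the mean input, and 7 regions were a single bin.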
